A study of Mus musculus with 6 samples.

Results

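The 39 genes described here are interferon-stimulated genes of the mouse, chosen by symbol, with earlier results of these libraries known, from a table of 33919 genes. All 39 were in the table, and all 39 passed the low-count filter into a test of 16620 genes. Poly(A) RNA was sequenced from 6 libraries with the tissue label aorta, 3 labelled WT and 3 labelled KO, and every mouse had been given angiotensin II (Ang II), a hormone that constricts vessels and, given for long, thickens their walls. From the series title the gene of interest is OTUD1, which removes ubiquitin from other proteins, in endothelium, together with SMAD3, a transcription factor downstream of TGF-beta, so the comparison asked how Ang II-treated tissue differed between the genotypes. The labels give the alleles only as WT and KO. Nothing used here gives the deleted part of the gene, the strain, the age or the Ang II dose, and no group without Ang II was analysed here. The design text counts 3 mice per group, but no label ties a library to an animal, so a p-value here reflects how far these libraries scatter, which may be partly technical.

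Library totals were 62.3 to 71.5 M counts (M, megacounts), of which mitochondrial genes and their copies in the nucleus took 71.1% to 73.7% in the WT-labelled libraries and 64.8% to 67.8% in the KO-labelled ones. That left 17.3 to 19.4 M and 23.0 to 23.4 M counts, ranges that do not overlap. The part of this difference in the results was not tested. Removing those genes before scaling left 16 of the 39 lower and 2 higher, beside 1764 lower and 1891 higher of all tested genes. That step cannot decide the question, since it took out few of the tested genes (16608 remained of 16620) and left the counts of the others as they were. Otud1 itself was higher in the libraries labelled KO, with a CPM of 8.83, 11.6 and 9.83 in the WT-labelled ones and 14.5, 15.6 and 16.8 in the KO-labelled ones (log2 fold change 0.63, SE 0.12, adjusted p = 0.0039). CPM is the count of a gene scaled to its library total (after TMM adjustment), and adjusted p-values come from edgeR's quasi-likelihood fit of the whole table, with 16620 genes tested. That goes against the label, and since the deleted part is not given, a count over the whole gene does not settle what the label means. The groups are therefore called the libraries labelled WT and labelled KO, and every direction below rests on those labels. The tissue is in doubt as well. The RNA protocol in the labels mentions adipose material, and the label aorta was not matched by the RNA. The 10 skeletal muscle markers summed to a CPM of 20381 to 20880 in the WT-labelled libraries and 26396 to 27302 in the KO-labelled ones. The 10 smooth muscle markers summed to 1561 to 1622 and 2396 to 2468, most of it the muscle filament gene Des. Acta2 alone, the actin of vascular smooth muscle, had a CPM of 202 to 210 and 48.1 to 50.1.

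Interferons are secreted proteins that cells release on sensing foreign or misplaced nucleic acid. Type I interferon binds a receptor of IFNAR1 and IFNAR2, the kinases JAK1 and TYK2 phosphorylate STAT proteins, and these join IRF9 to form a complex that binds the interferon-stimulated response element (ISRE) in the promoters of target genes. Interferon-gamma acts through JAK1 and JAK2 on another DNA element, the gamma-activated site (GAS). The targets include sensors and effectors that block viral entry, translation and release, and a low tonic signal keeps many of them expressed in healthy tissue, macrophages and endothelium included.

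Most of the interferon-stimulated genes that changed were lower in the libraries labelled KO. Of the 39 genes, 16 fell and 2 rose at an adjusted p below 0.05, which is 41.0% lower and 5.13% higher. Among all tested genes 10.5% were lower and 11.5% higher, or 22.0% in either direction. Irf7, Bst2, Isg15, Gbp7 and Ifit3 were among those that fell, by 1.69-fold to 2.26-fold, and Oas3, the gene of lowest mean FPKM, fell by 5.06-fold. Only Ifi27 and Oas2 rose. The other 21 did not pass the test, 18 with a negative and 3 with a positive fitted change, and 23 of the 39 had an unadjusted p under 0.05 (5503 of all 16620 genes). The median log2 fold change was -0.36 over the 39 genes and -0.02 over all tested genes. In CPM, all 3 libraries labelled KO lay below all 3 labelled WT for 22 of the 39, and above them for 2, whereas 19.4% and 19.3% of all tested genes were so separated, 38.6% in all. In FPKM, 15 of the 39 were separated below and 2 above. Of all 16620 tested genes, 2135 were below and 4452 above in FPKM, a lean that CPM did not show. The FPKM overlaps and signs of single genes given further on stand beside that lean. The summed CPM of 12 macrophage markers was also lower, at 239 to 248 in the WT-labelled libraries and 170 to 175 in the KO-labelled ones, and its part in these calls was not tested. Sums of other marker lists differed too. Among them, those of fibroblasts (1112 to 1139 against 497 to 510) and B cells (25.0 to 27.9 against 8.41 to 10.9) were lower. That of neutrophils was higher (2.38 to 3.49 against 25.9 to 30.2). In bulk tissue, fewer cells of a type and less RNA per cell cannot be told apart. Since the list was so chosen, the counts describe these libraries and are not an independent test of a direction.

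**Figure D1:**
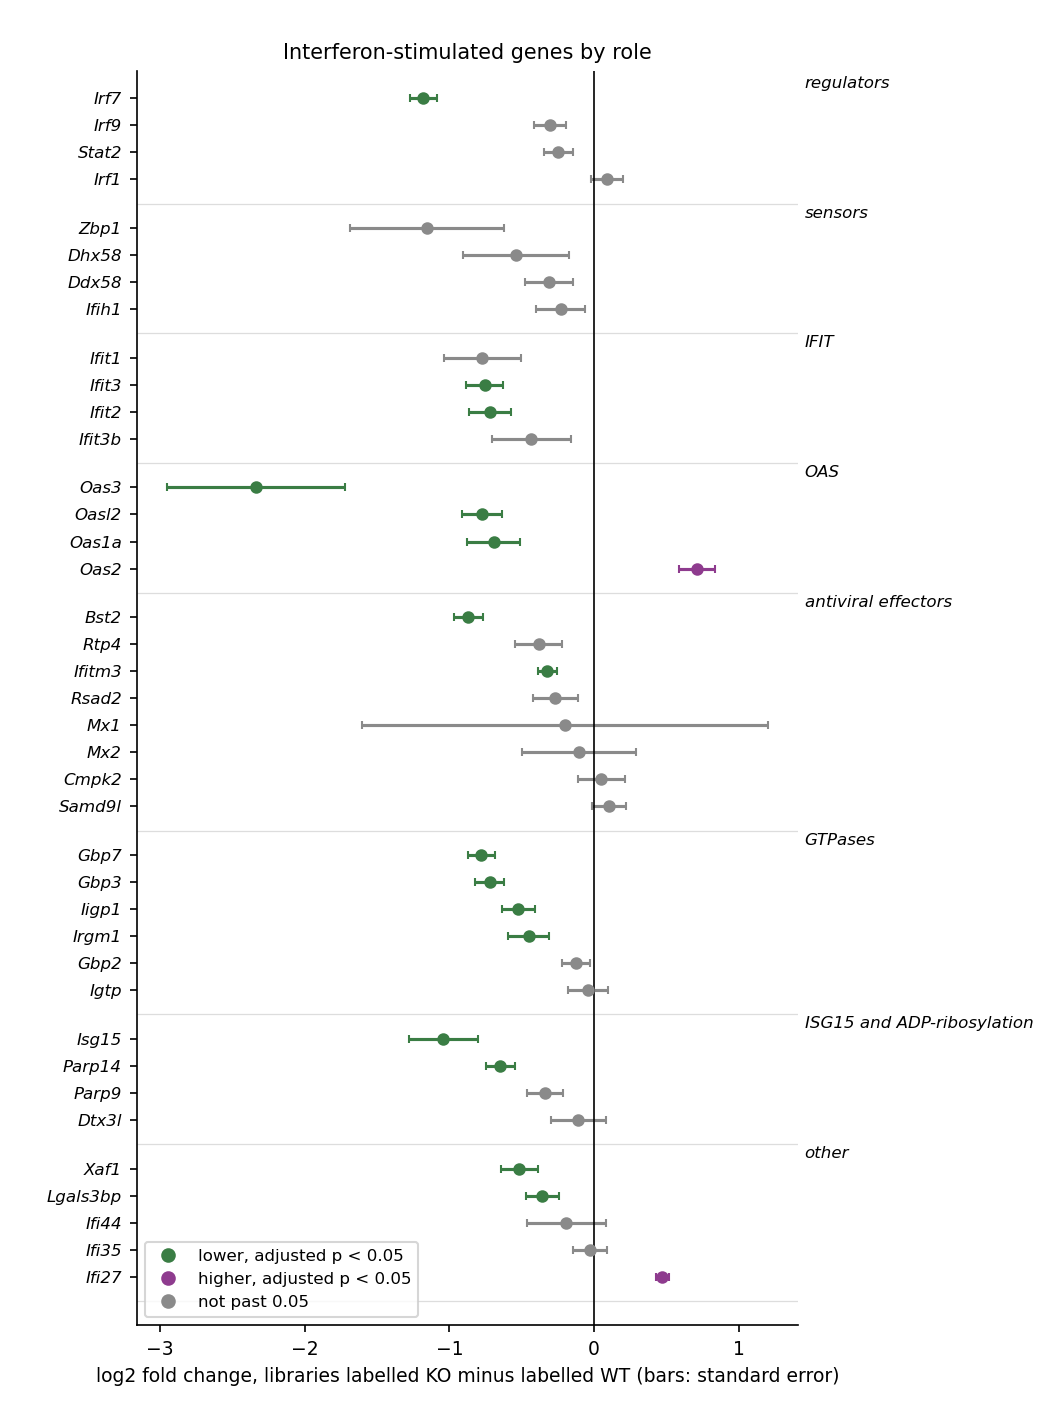
Fitted log2 fold change of each of the 39 genes, libraries labelled KO minus those labelled WT, grouped by role and ordered within each role; bars are standard errors from edgeR over 3 libraries per group. Of the points, 16 are green (lower), 2 are purple (higher) and 21 are grey (adjusted p of 0.05 or above), and Oas2 is the one OAS gene right of 0.

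On FPKM, which divides by gene length and so allows levels of different genes to be set side by side, the set was dominated by a few genes. Ifi27 was the highest, at 79.9 ± 6.92 (SD, n = 3) in the WT-labelled libraries and 123 ± 7.81 (SD, n = 3) in the KO-labelled ones. Ifitm3 followed with 79.7 ± 6.17 and 70.7 ± 7.22, Bst2 with 23.7 ± 2.30 and 14.4 ± 1.82, and Ifi35 with 7.95 ± 0.890 and 8.70 ± 0.399 (SD, n = 3 in each). In the libraries labelled WT the means of Ifi27 and Ifitm3 differed by less than their spread, so their order there is not resolved, whereas in the KO-labelled ones all 3 values of Ifi27 lay above all 3 of Ifitm3. Those 3 leading genes were the ones with a mean FPKM of 10 or more in either group. Of the rest, 27 genes had a mean between 1 and 10 in the WT-labelled libraries and 26 in the KO-labelled ones, and 9 and 10 genes lay below 1. The median FPKM over the 39 genes was 2.13 in the WT-labelled libraries and 1.72 in the KO-labelled ones. Replicates were close: the median coefficient of variation of CPM over 3 libraries was 9.37% and 10.1%. The median gene rested on a mean of 561 counts per library, and Mx1 alone had a library with no count.

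**Figure D2:**
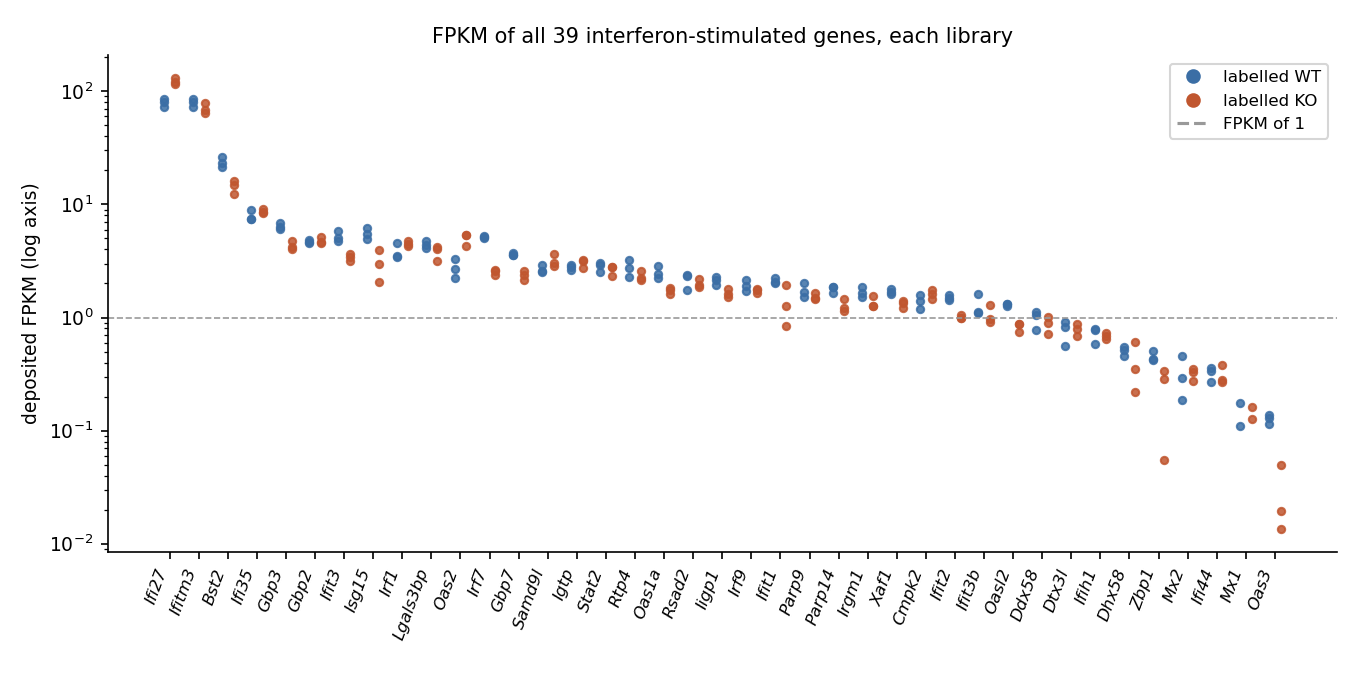
Deposited FPKM of the 39 genes in each of the 6 libraries on a log axis, ordered from the highest mean to the lowest; blue points are the 3 libraries labelled WT and orange points the 3 labelled KO, and the 2 zero values of Mx1 cannot be drawn. Ifi27, Ifitm3 and Bst2 lie above an FPKM of 10, most genes between 1 and 10, and Oas3 at the bottom, with its 3 orange points apart below its 3 blue ones.

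The promoters were read for the motifs through which interferon acts. RefSeq promoter sequences (GRCm38.p6, from 250 bases before to 50 after the start of each gene) were found for 29 of the 39 genes. A core of the ISRE, GAAANNGAAA, was searched on both strands. It was present in 17 of the 29 promoters (58.6%), in 32 of 69 promoters of further interferon-response genes outside the 39 (46.4%), in 6 of 43 of interferon pathway genes (14.0%) and in 1079 of all 27025 promoters (3.99%). Of the genes that fell, 9 of the 14 with a promoter held it (64.3%), and of those that did not pass the test 8 of 15 did (53.3%). A core of the GAS, TTCNNNGAA, which reads the same on both strands, was in 8 of the 29 (27.6%), in 8 of 69 further interferon-response genes (11.6%), in 12 of 43 pathway genes (27.9%) and in 9.55% of all promoters. By this count the set held the GAS core about as often as the pathway genes. Both motifs can share bases, as they did in Bst2 and Ifitm3. No promoter was found for Oas2 or Ifi27, the genes that rose, and Irf7 had no match to either core in its window, which says only that these letters are not there.

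The following stretches show how the ISRE core sits in genes that fell (Isg15, Bst2, Ifit3, Oas3, Gbp7 and Gbp3) and in genes that did not pass the test (Ifit3b and Rsad2). Each is written 5′ to 3′ on the strand of the gene, begins 20 bases before the first match and ends at most 18 bases before the RefSeq start, and capitals mark the matches, which appear as their reverse complement where the motif lies on the other strand. The stretches are chr4:156200819-156200916 (minus strand) for Isg15, chr8:71537473-71537622 (minus) for Bst2, chr19:34583353-34583528 (plus) for Ifit3, chr19:34607749-34607956 (plus) for Ifit3b, chr5:120777662-120777754 (minus) for Oas3, chr3:142530263-142530335 (plus) for Gbp7, chr3:142559979-142560025 (plus) for Gbp3 and chr12:26456453-26456592 (minus) for Rsad2. In Isg15 3 matches overlap in 1 run, and in Bst2 and Gbp3 2 do. The stretches of Ifit3 and Ifit3b, both in the IFIT cluster of chromosome 19, open with the same letters.
Isg15: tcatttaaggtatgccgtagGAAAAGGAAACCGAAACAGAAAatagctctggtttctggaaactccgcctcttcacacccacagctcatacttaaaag
Bst2: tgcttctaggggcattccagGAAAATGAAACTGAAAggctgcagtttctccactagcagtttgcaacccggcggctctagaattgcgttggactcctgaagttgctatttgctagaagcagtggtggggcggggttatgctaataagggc
Ifit3: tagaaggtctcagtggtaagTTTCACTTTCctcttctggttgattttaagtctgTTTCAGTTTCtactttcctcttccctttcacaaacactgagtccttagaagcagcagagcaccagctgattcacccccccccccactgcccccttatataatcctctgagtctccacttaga
Ifit3b: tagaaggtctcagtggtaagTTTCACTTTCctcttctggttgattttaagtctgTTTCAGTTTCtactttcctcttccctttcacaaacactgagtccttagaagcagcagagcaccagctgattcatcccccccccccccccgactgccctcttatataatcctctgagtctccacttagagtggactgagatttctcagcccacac
Oas3: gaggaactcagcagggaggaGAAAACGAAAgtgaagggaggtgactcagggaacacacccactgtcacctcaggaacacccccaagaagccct
Gbp7: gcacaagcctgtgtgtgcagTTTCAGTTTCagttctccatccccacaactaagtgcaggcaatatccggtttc
Gbp3: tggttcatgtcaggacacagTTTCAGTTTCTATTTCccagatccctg
Rsad2: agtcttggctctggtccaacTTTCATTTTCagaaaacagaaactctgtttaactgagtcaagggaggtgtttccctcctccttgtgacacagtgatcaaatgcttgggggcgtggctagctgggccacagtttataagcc

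**Figure D3:**
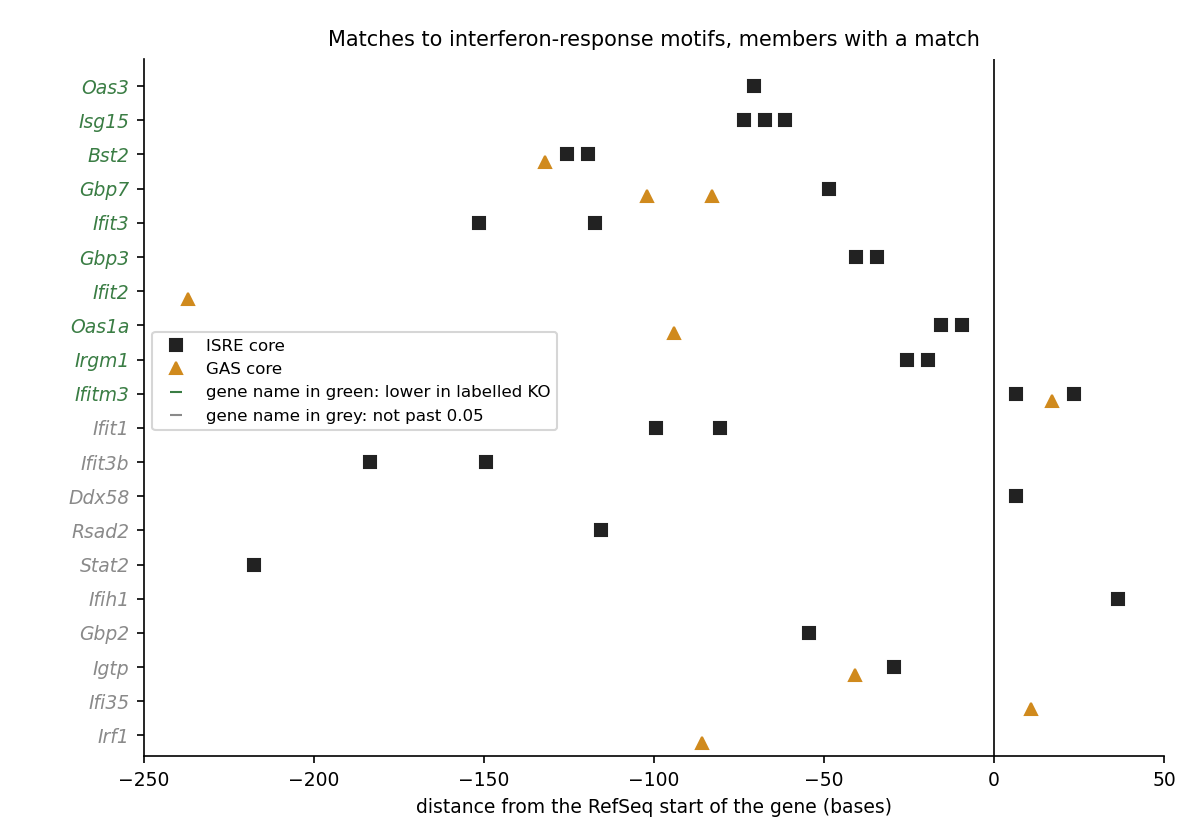
Position of each match to the ISRE core (black squares) and the GAS core (orange triangles) in the RefSeq promoter windows of the genes with at least 1 match, in bases from the start of the gene; green names fell in the libraries labelled KO and grey names did not pass the test. Both colours of name carry ISRE matches, 9 green and 8 grey, and most squares lie before the start.

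Among the regulators, Irf7 fell, whereas Irf9, Stat2 and Irf1 did not pass the test. The counts by role, here and below, rest on 4 to 8 genes each. They stand beside 10.5% lower and 11.5% higher among all tested genes. Irf7 (ENSMUSG00000025498, chr7:141262706-141266481, minus strand), the factor that amplifies type I interferon production once a response has begun, had a CPM of 22.5, 24.5 and 21.5 in the WT-labelled libraries and 10.1, 9.56 and 10.6 in the KO-labelled ones. Its groups were far apart, and its level was 2.26-fold lower (log2 fold change -1.18, SE 0.10, adjusted p = 9.3e-06). Irf9, the DNA-binding subunit of the complex that reads the ISRE, had 11.9, 11.4 and 12.9 against 8.93, 9.97 and 10.3 (log2 fold change -0.31, SE 0.11, adjusted p = 0.077). Stat2, its partner, had 21.1, 18.4 and 19.3 against 16.9, 17.6 and 15.0 (-0.25, SE 0.10, adjusted p = 0.11). For both, every library labelled KO was below every library labelled WT in CPM but not in FPKM, and both passed with DESeq2 (adjusted p = 0.036 for Irf9 and 0.043 for Stat2). Irf1, a factor induced mainly by interferon-gamma, had 16.2, 16.5 and 20.3 against 17.8, 20.2 and 18.4, so the groups overlapped (0.09, SE 0.11, adjusted p = 0.63).

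None of the 4 nucleic acid sensors passed the edgeR test, and all 4 fitted changes were negative. Zbp1, which binds Z-form nucleic acid and can start cell death, had 2.10, 1.86 and 1.68 against 1.22, 0.219 and 1.09 (-1.16, SE 0.53, adjusted p = 0.16). The library labelled KO replicate 2 set that size: without it the change was -0.70 (adjusted p = 0.22). With DESeq2 and all 6 libraries Zbp1 passed narrowly (adjusted p = 0.04994). Ddx58 (RIG-I), Ifih1 (MDA5) and Dhx58 (LGP2), helicases that bind viral RNA in the cytoplasm, had fitted changes of -0.31, -0.23 and -0.54 with adjusted p-values of 0.22, 0.39 and 0.35, and their groups overlapped.

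The IFIT genes encode proteins that bind foreign RNA and block its translation, and they lie in 1 cluster on chromosome 19, between 34550694 (the start of Ifit2) and 34650009 (the end of Ifit1). Ifit2 had a CPM of 6.54, 7.50 and 6.55 in the WT-labelled libraries and 4.14, 4.10 and 4.26 in the KO-labelled ones (-0.72, SE 0.15, adjusted p = 0.0051). Ifit3 had 9.79, 10.8 and 11.2 against 5.57, 6.76 and 6.47 (-0.76, SE 0.13, adjusted p = 0.0016). In both the groups were separate in CPM and FPKM. Ifit1 had 6.26, 7.17 and 6.07 against 3.43, 2.38 and 5.61, a fitted change as large (-0.77, SE 0.27) but with an adjusted p of 0.065. Its replicate 3 labelled KO lay close to the other group, and without it the change was -1.16 (adjusted p = 0.0061). With all 6 libraries Ifit1 also passed in 4 alternatives: DESeq2 (adjusted p = 0.0082), a mean CPM of at least 1 (0.045), robust empirical Bayes (0.039) and counts divided by 4 (0.0385). Ifit3b gave -0.43 (SE 0.27, adjusted p = 0.31) with overlapping groups. Of the 50-base stretches in the longest transcript of Ifit3, 51.2% also occur in Ifit3b, so how the counting split reads between these copies is uncertain.

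The OAS genes moved in both directions. They encode enzymes that, on binding double-stranded RNA, make the short oligoadenylates that switch on RNase L. Oas2 and Oas3 are neighbours on the minus strand of chromosome 5, at 120730333-120749853 and 120753098-120777661, with Oas1a at 120896256-120907521. Oas2 rose, with a CPM of 14.0, 12.1 and 16.4 in the WT-labelled libraries and 23.8, 25.2 and 20.7 in the KO-labelled ones (0.71, SE 0.12, adjusted p = 0.0019). Oas3 fell, on few reads: 64, 69 and 68 counts against 26, 11 and 8 (CPM 0.953, 1.15 and 1.09 against 0.365, 0.150 and 0.110, -2.34, SE 0.62, adjusted p = 0.019). Both genes had separate groups, so adjacent genes of this locus went opposite ways. Small counts were divisible by 4 in excess, a feature whose origin was not tested, and the floor of detection was therefore set at 12 counts, and 2 of the 3 counts of Oas3 labelled KO were below it.

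Oas1a, a catalytically active mouse OAS1 gene, had 5.39, 6.54 and 4.65 against 3.36, 3.63 and 3.26 (-0.69, SE 0.18, adjusted p = 0.020), and 57.6% of its 50-base stretches occur in Oas1g. Oasl2, an OAS-like gene elsewhere on chromosome 5 (114896936-114912234), had 9.77, 9.77 and 9.35 against 4.76, 5.99 and 6.13 (-0.77, SE 0.14, adjusted p = 0.0023). Its groups did not overlap. The Oas1a call was lost without replicate 2 labelled WT (adjusted p = 0.079), replicate 1 labelled KO (0.062) or replicate 3 labelled KO (0.065). That of Oas3 was lost without replicates 2 or 3 labelled WT (0.062 and 0.053) or 2 or 3 labelled KO (0.060 and 0.055), and without replicate 1 labelled KO its change was -3.01 (adjusted p = 0.013).

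Of 8 other antiviral effectors, 2 fell. Bst2 (tetherin), a membrane protein that holds budding virus to the cell surface, had 24.6, 23.8 and 26.2 against 14.5, 14.2 and 12.1 (chr8:71534255-71537456, minus strand, -0.87, SE 0.10, adjusted p = 0.00011). Ifitm3, which blocks fusion of virus in endosomes, had 63.7, 60.5 and 64.3 against 53.9, 49.2 and 47.6 (-0.32, SE 0.07, adjusted p = 0.0050). The groups of both genes were separate in CPM, but those of Ifitm3 overlapped in FPKM, where limma on log2(FPKM + 1) gave -0.17 (adjusted p = 0.20). The remaining 6 did not pass. Rsad2 (viperin) and Cmpk2, neighbours on chromosome 12 whose enzymes act in one nucleotide pathway, gave -0.27 (adjusted p = 0.27) and 0.05 (adjusted p = 0.88). Rtp4, Mx2 and Samd9l gave -0.38, -0.10 and 0.10, with adjusted p-values of 0.12, 0.89 and 0.60. Mx1, a dynamin-like GTPase known for restricting influenza virus, had 53, 32 and 0 counts against 45, 38 and 0, too few for a fold change to be read.

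Interferon-inducible GTPases, which coat and break the vacuoles of intracellular pathogens, fell in 4 of 6 cases, beside 10.5% of all tested genes. Gbp3 had 23.3, 27.2 and 22.8 against 15.6, 14.0 and 14.8 (-0.72, SE 0.10, adjusted p = 0.00043). Gbp7, which lies beside it on chromosome 3 (Gbp7 at 142530342-142550149, Gbp3 at 142560026-142573209, plus strand), had 24.6, 24.6 and 22.1 against 14.6, 14.0 and 12.9 (-0.78, SE 0.09, adjusted p = 0.00016). Gbp2, the next member of that cluster (142620602-142638008), did not pass, with 13.7 ± 0.870 against 12.6 ± 0.314 (SD, n = 3; -0.12, adjusted p = 0.44), and its fitted change had the other sign on FPKM (0.024). All 3 carry an ISRE core before their start, as shown above for Gbp7 and Gbp3.

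The immunity-related GTPases were less uniform. Iigp1, an effector that assembles on the vacuole membrane, had 14.7, 13.8 and 14.8 against 8.86, 11.1 and 10.2 (-0.52, SE 0.11, adjusted p = 0.0069, and 0.071 on unfiltered log2(FPKM + 1)). Irgm1, a regulator of these effectors, had 10.4, 13.3 and 10.6 against 7.48, 9.55 and 8.03 (-0.45, SE 0.14, adjusted p = 0.043). The Irgm1 groups were separate in CPM and overlapped in FPKM, and the call was lost without any of replicates 1, 2 and 3 labelled WT (adjusted p = 0.054, 0.16 and 0.063) or replicates 1 and 3 labelled KO (0.15 and 0.11). It was also lost without a filter on low counts and in every limma setting on FPKM, so Irgm1 passed in 8 of 18 alternatives. Igtp (Irgm3) had 6.59 ± 0.293 against 6.40 ± 0.585 (SD, n = 3; -0.04, adjusted p = 0.88), and it shares its locus and strand with Irgm2, so reads of these genes may not be separable. Its sign was positive on FPKM (0.082).

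Isg15, a ubiquitin-like protein that is joined to other proteins during the response, had a CPM of 4.48, 4.21 and 4.84 in the WT-labelled libraries and 2.78, 2.20 and 1.58 in the KO-labelled ones. It was 2.06-fold lower, with groups that did not overlap (chr4:156199455-156200796, minus strand, log2 fold change -1.04, SE 0.24, adjusted p = 0.0093). Parp14, an enzyme that adds single ADP-ribose units, had 20.3, 18.5 and 19.2 against 13.5, 12.1 and 11.4 (-0.65, SE 0.10, adjusted p = 0.00090). On log2(FPKM + 1) without a filter on low values, the calls of Isg15 and Parp14 were lost (adjusted p = 0.082 and 0.0502). Parp9 and Dtx3l form a complex of an ADP-ribosylating enzyme and a ubiquitin ligase. Parp9 had 8.73, 9.95 and 10.9 against 8.13, 7.67 and 7.60, separate groups that did not pass (-0.34, SE 0.12, adjusted p = 0.081, and 0.041 with DESeq2), and Dtx3l gave -0.11 (SE 0.19, adjusted p = 0.75). These genes overlap by 682 bases on opposite strands of chromosome 16, and the strand setting of the counting is not given, so their reads there cannot be told apart.

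The last 5 genes held the clearest rise. Ifi27, a small hydrophobic protein of internal membranes and the gene of highest FPKM, had 139, 129 and 140 against 195, 187 and 185 (chr12:103434211-103440239, plus strand, 0.47, SE 0.05, adjusted p = 4.3e-05). All 3 libraries labelled KO lay above all 3 labelled WT, with little spread in either group. Xaf1, which counters an inhibitor of apoptosis, had 9.32, 9.35 and 9.24 against 5.71, 7.00 and 6.76 (-0.52, SE 0.13, adjusted p = 0.014, and 0.0502 without replicate 1 labelled KO). Lgals3bp, a secreted glycoprotein that binds galectins, had 14.6, 14.2 and 14.8 against 11.5, 12.7 and 9.81 (-0.36, SE 0.11, adjusted p = 0.047). That call was lost without replicates 1, 2 or 3 labelled WT (adjusted p = 0.11, 0.078 and 0.12) or 1 or 3 labelled KO (0.10 and 0.13). It was also lost without a filter on low counts, with the replicate block, and with limma on log2(FPKM + 1), filtered or not, and log2(FPKM + 0.1). Lgals3bp thus passed in 8 of 18 alternatives, and its groups overlapped in FPKM. Ifi35 and Ifi44 overlapped between groups, with CPMs of 15.0, 18.9 and 14.3 against 15.0, 16.7 and 15.6 for Ifi35 (-0.03, adjusted p = 0.91, and 0.12 on FPKM) and a fitted change of -0.19 for Ifi44 (adjusted p = 0.69).

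**Figure D4:**
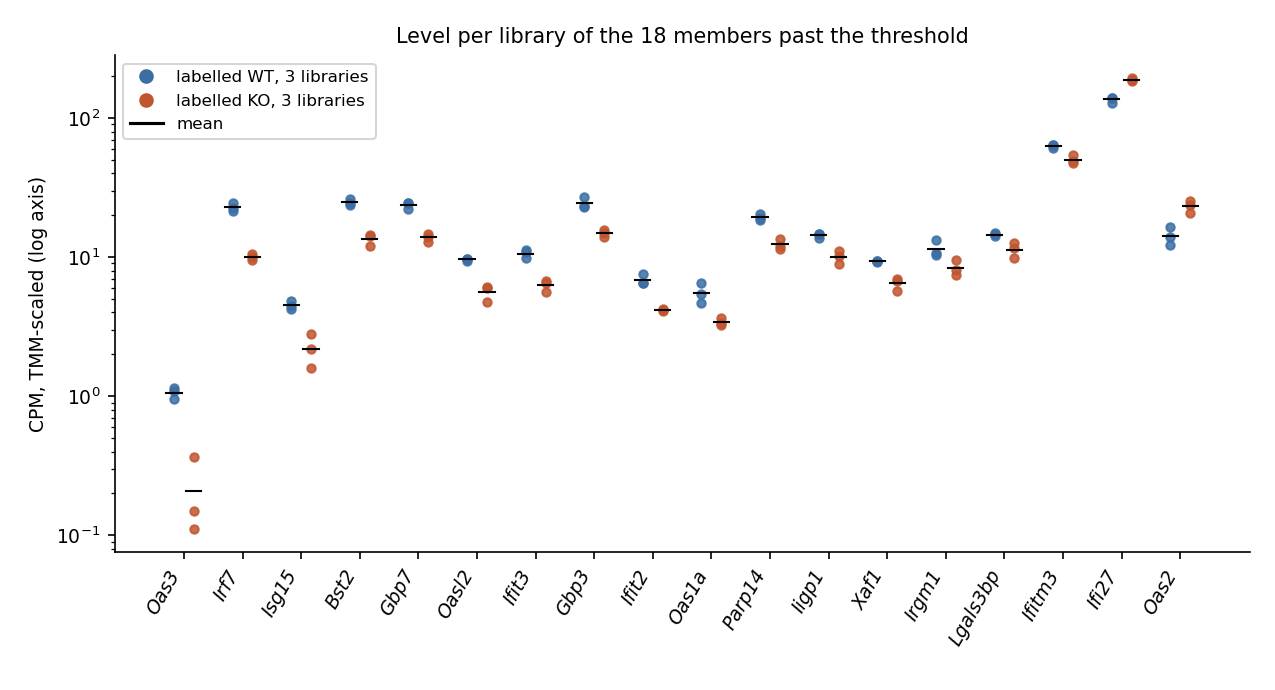
CPM on a log axis in each library for the 18 genes with an adjusted p below 0.05, ordered by fitted change; blue points are the 3 libraries labelled WT, orange points the 3 labelled KO, and black bars their means. The orange points lie below the blue ones for the first 16 genes, from Oas3 to Ifitm3, and above them for Ifi27 and Oas2.

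How far the calls depended on the data used was followed for each gene. Of the 16 that fell, 7 (Bst2, Gbp3, Gbp7, Ifit2, Ifit3, Irf7 and Oasl2) passed in all 18 alternative settings, as did both that rose, and 16 of the 21 that did not pass also passed in none of the alternatives in which they were tested. On log2(FPKM + 1) with limma, 30 of the 39 had a mean FPKM of at least 1 and were tested, of which 12 were lower and 2 higher. Scale, filter and test change together in that setting, in which 8101 of all genes were tested: their median was 0.15 and that of the 30 was -0.17, and 679 of all genes were lower and 2643 higher, against 1751 and 1907 with edgeR. Without the filter the same scale gave 857 lower and 2173 higher, with medians of 0.01 over all genes and -0.13 over the 39, and after quantile normalization it gave 1329 and 1449, with medians of 0.02 and -0.29. The median of the set lay below that of all genes in each of these.

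Few of the genes that carry the interferon signal passed the test. From a list of 50 pathway genes outside the 39, 43 were in the table and 39 were tested, of which 4 fell and 3 rose, or 10.3% and 7.69%, near the 10.5% and 11.5% of all genes, and their median log2 fold change was -0.09. Of the 9 ligands listed, only 2, Ifna4 and Ifng, were in the table, so the others could not be read. Ifna4 had 2 counts in 1 library labelled WT and none elsewhere, Ifng had none in any library, and neither was tested. The receptor chains Ifnar1 and Ifnar2 gave 0.17 (SE 0.12, adjusted p = 0.38) and 0.13 (SE 0.13, adjusted p = 0.54). Ifngr1, Ifngr2 and Il10rb gave 0.04, -0.25 and 0.09, with adjusted p-values of 0.87, 0.22 and 0.73, and Ifnlr1, the lambda receptor, was too low to be tested. The sign of Ifngr1 turned without replicate 1 or 2 labelled KO. The kinases Jak1, Jak2 and Tyk2 gave -0.24, 0.11 and 0.16, with adjusted p-values of 0.10, 0.53 and 0.40, and without replicate 3 labelled KO Jak1 passed (-0.32, adjusted p = 0.043).

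Of the other IRF factors, Irf8, which myeloid and dendritic cells need, fell (-1.11, SE 0.34, adjusted p = 0.040), with 3.66, 2.48 and 5.98 against 1.60, 2.53 and 1.47 and overlapping groups. Irf4, a factor best known from lymphocytes, rose (1.04, SE 0.30, adjusted p = 0.028), with 3.34, 2.31 and 1.33 against 4.45, 5.29 and 4.59. Neither call was firm. That of Irf8 was lost without replicates 1 or 3 labelled WT (0.074 and 0.18) or 1 or 3 labelled KO (0.13 and 0.13), and that of Irf4 without replicates 2 or 3 labelled WT (0.078 and 0.052) or any labelled KO (0.066, 0.096 and 0.068).

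**Figure D5:**
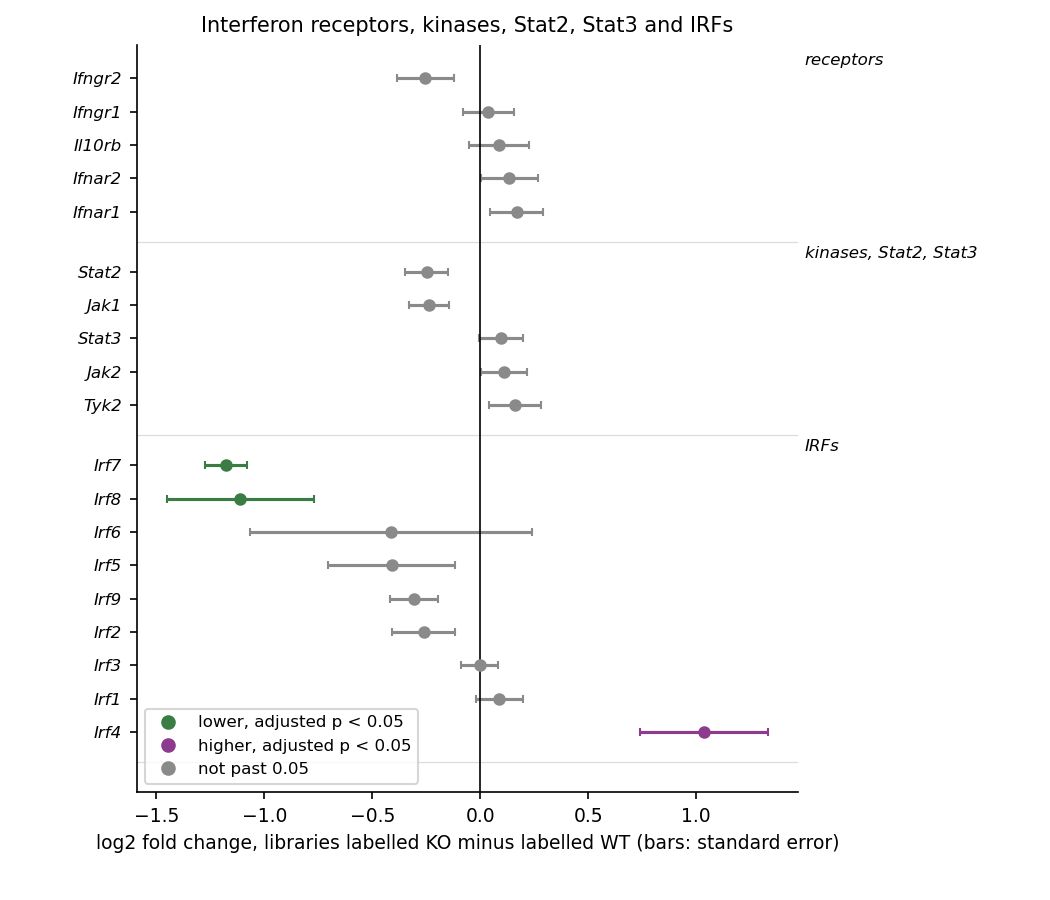
Fitted log2 fold change, libraries labelled KO minus those labelled WT, of tested interferon receptor chains, the JAK kinases, Stat2 and Stat3, and the IRF factors; bars are standard errors from edgeR over 3 libraries per group. No receptor chain or kinase shown is coloured, nor is Stat2 or Stat3, Irf7 and Irf8 are green (lower) and Irf4 is purple (higher).

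Adaptors and brakes of the pathway gave the other calls. Traf3, an adaptor of the sensing pathways, fell (-0.52, SE 0.12, adjusted p = 0.010), and so did Samhd1, which depletes deoxynucleotides (-0.43, SE 0.10, adjusted p = 0.0092), and Pias1, an inhibitor of STAT signalling (-0.65, SE 0.15, adjusted p = 0.011). Mavs, the mitochondrial adaptor of the RNA helicases, rose (0.38, SE 0.12, adjusted p = 0.042), as did Socs3, a feedback inhibitor of cytokine receptors (0.89, SE 0.23, adjusted p = 0.019). The Mavs call was lost without replicates 1 or 2 labelled WT (0.12 and 0.13) or 1 or 2 labelled KO (0.11 and 0.16), and the Socs3 call without replicate 1 labelled WT (0.051) or replicates 2 or 3 labelled KO (0.063 and 0.067). Traf3 and Samhd1 did not pass on log2(FPKM + 1) (adjusted p = 0.074 and 0.11).

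A wider list of 89 interferon-response genes outside the 39 also held more genes that fell than rose. Of 87 tested, 18 fell and 3 rose (20.7% and 3.45%, against 10.5% and 11.5% of all genes), with a median of -0.22. Slfn5, a member of the Schlafen family, had a CPM of 98.0, 103 and 102 in the WT-labelled libraries and 59.4, 59.5 and 58.8 in the KO-labelled ones (-0.77, SE 0.05, adjusted p = 1.9e-06), a wide gap with almost no spread. The GTPases Tgtp1 and Tgtp2 fell by 0.96 and 0.90 on the log2 scale (adjusted p = 0.0015 and 0.00099). Ube2l6, the conjugating enzyme that passes ISG15 to its targets, fell by 0.84 (adjusted p = 0.0020), beside the fall of Isg15 itself. Ifi27l2a, a relative of Ifi27, fell by 0.45 (adjusted p = 0.00086), whereas Ifi27 rose.

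Ifi27l2b had no count in any library labelled KO and 22, 31 and 59 counts in the WT-labelled ones (CPM 0.328, 0.516 and 0.943). The mean CPM of 0.595 in the WT-labelled libraries was 3.59-fold above a floor of 12 counts per library. That ratio makes no allowance for the spread of the WT-labelled libraries, so it is not a lower bound. Helz2 (0.64, adjusted p = 0.00099), Daxx (0.57, adjusted p = 0.031) and Ifitm1 (1.32, adjusted p = 0.037) were the 3 that rose. Ifitm1 thus went the other way from Ifitm3. The Daxx call was lost without replicates 1 or 3 labelled WT (0.087 and 0.088) or any labelled KO (0.063, 0.10 and 0.074), and that of Ifitm1 without replicates 2 or 3 labelled WT (0.099 and 0.098) or any labelled KO (0.12, 0.059 and 0.084).

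Markers of several cell types that express interferon-stimulated genes differed between the same libraries. The counts here and in the next paragraph stand beside 10.5% lower and 11.5% higher among all tested genes. Of 12 macrophage markers 6 fell and none rose, with a median log2 fold change of -0.38. Of the 6 that did not pass, 5 had a negative fitted change and 1 a positive one (0.41). Lyz2 (-0.79, adjusted p = 3.4e-05), Csf1r (-0.71, adjusted p = 0.00074) and Adgre1 (-0.80, adjusted p = 0.0055) were among those that fell, whereas C1qa (-0.09) and C1qb (-0.07) did not pass. Of 8 markers that all leukocytes share 1 fell (12.5%), near the share of all genes, and their sum was 44.2 to 46.6 against 31.9 to 37.8. Of 10 dendritic cell markers 2 fell, 1 of them Bst2, itself an interferon-stimulated gene of the set. The other 8 did not pass, 4 with a negative and 4 with a positive fitted change, the largest 3.53. For 1 of the 10, all libraries labelled KO lay above all labelled WT in CPM. The sum of the 10 was 97.0 to 100.4 against 60.1 to 64.1, and it includes Bst2, with a mean CPM of 24.9 against 13.6. Siglech, the defining marker of plasmacytoid dendritic cells, was at 0.328, 1.10 and 0.655 against 0.477, 0.205 and 0.0964, so its groups overlapped.

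Markers of T and NK cells were low throughout. Of 12 T and NK cell markers 5 were tested and 1 fell, with sums of 1.68 to 2.67 against 0.547 to 1.07, and of 6 B cell markers 5 were tested and 1 (Ighm) fell, with sums of 25.0 to 27.9 against 8.41 to 10.9. Neutrophil markers went the other way: 5 of 7 tested rose, with sums of 2.38 to 3.49 against 25.9 to 30.2, while Ngp was at 0 in every library. Endothelial markers were mixed, with 4 of 10 lower and 2 higher and sums of 680 to 696 against 633 to 641. All 10 fibroblast markers fell, with sums of 1112 to 1139 against 497 to 510, and 8 of 10 smooth muscle markers fell, while the sum of that list, most of it the muscle filament gene Des that rose, was 1561 to 1622 against 2396 to 2468. Of 6 fat markers 3 fell and 1 rose, with sums of 2218 to 2281 against 2125 to 2229. The part of these differences in the lower level of the interferon-stimulated genes was not tested.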

How the data were processed

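Counts and FPKM of 6 mouse RNA-seq libraries, 3 labelled WT and 3 labelled KO by the genotype label, were analysed. The authors deposited whole-number counts per gene without normalization. The FPKM values were also deposited by the authors, per the file headers, by a method no source used here describes. Per the submitters' processing notes, the tools include HISAT2 2.0 and Bowtie 0.12.2 and the build is mm8, without roles; no source used here gives the counting program or strand setting. Coordinates matched GENCODE release M21 (GRCm38) for 91.1% of genes and for 35 of the 39, and are given as GRCm38.

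The main test of the counts was edgeR 4.0.16 in R 4.3.3 (filterByExpr, TMM scaling, two-sided quasi-likelihood test on genotype). P-values of the 16620 genes were adjusted by Benjamini-Hochberg and called below 0.05. Standard errors are the fitted log2 fold change divided by the square root of F. Low counts (1 to 40) fell on multiples of 4 in 33.0% to 34.9% of cases, against 25% by chance, so the floor was set as if a read pair added 4, at 3 read pairs or 12 counts, and covers counting error only. Motifs were searched in RefSeq promoters (GRCm38.p6), and transcripts of GENCODE M21 were compared by shared 50-base stretches. Alternatives were DESeq2 1.42.0, its size factors, other filters, robust dispersion, a replicate block, leaving out each library, counts divided by 4, removal of mitochondrial genes, and limma 3.58.1 on log2(FPKM + 1) or log2(FPKM + 0.1). In simulated counts for 16620 genes, 200 genes with a mean CPM above 1 were changed. Of these, 31% were recovered at 1.5-fold and 61% at 2-fold, with 8 false calls. In the data 3658 genes were called, so the adjustment for many tests differed there. The simulated shares therefore do not give the recovery of the calls above. Figures were drawn with matplotlib 3.10.9.

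The 39 genes and the other lists were chosen with earlier results of these data known. By a fixed rule, values per library (for some, mean and SD) are given for those of the 39 past the threshold, the 4 of highest FPKM, Stat2, Irf9, Irf1 and the 2 of smallest p not past it (Ifit1 and Irf9). Of the pathway list the rule names the receptors, the JAK kinases and every gene past the threshold, and of the further genes up to 6 per direction, most by their fitted change alone. Per-library values beyond this, markers and other genes were chosen after their values were seen. A single gene that the rule names is not reported here.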

Additional observations from a re-analysis of the deposited data

How the results depend on the processing

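Counts of the 39 genes stayed within 1.5 times 16 lower and 2 higher, except that 10 were lower on log2(FPKM + 1) without a filter. Leaving out each library gave 12 to 15 of the 39 lower and 2 higher. All genes called in those fits were 1411 to 1468 lower and 1465 to 1703 higher, of 17359 to 17540 tested. DESeq2 gave 5 further interferon-response genes higher and 2629 of all genes lower. On log2(FPKM + 1) 0 pathway genes were lower, 8 further genes lower and 6 higher, and 679 of all genes lower; on log2(FPKM + 0.1) these were 1 pathway gene, 8 further genes and 680 of all genes lower; without a filter they were 1, 5 and 857. Quantile normalization gave 1 pathway gene higher and 11 further genes lower. Leaving out each library gave 0 to 2 pathway genes and 1 to 3 further genes higher. The cause of these shifts was not tested.

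Signs turned only for genes that did not pass the test. Over the leave-one-out fits the log2 fold change ran from -0.78 to 0.53 for Mx1, -0.35 to 0.29 for Mx2, -0.10 to 0.10 for Ifi35, -0.077 to 0.16 for Cmpk2, -0.035 to 0.17 for Ifngr1, -0.016 to 0.20 for Samd9l and -0.11 to 0.023 for Igtp. On log2(FPKM + 1), filtered or not, Gbp2 was at 0.024, Igtp at 0.082 and Ifi35 at 0.12; on log2(FPKM + 0.1) they were at 0.029, 0.11 and 0.13. Without a filter Mx1 was at 0.00106, Mx2 at 0.013 and Dtx3l at 0.020, and after quantile normalization Ifngr1 was at -0.048.

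Same-numbered libraries did not deviate together (correlations of -0.0076, -0.0099 and -0.014), so the numbers were not taken to pair them. With the replicate block, 15 of the 39 were lower and 2 higher, pathway genes gave 4 and 2, further genes 16 and 3, and all genes 1552 and 1703. Oas3 and Mx1 had the fewest counts of the 39 genes, 8 to 69 and 0 to 53 per library.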
